A study of Homo sapiens with 7 samples.

Results

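Histone acetylation is written by lysine acetyltransferases and removed by histone deacetylases. The 10 genes described here are the acetyltransferases EP300, CREBBP, KAT2A and KAT2B, the class I deacetylases HDAC1, HDAC2 and HDAC3, and the class IIa deacetylases HDAC4, HDAC7 and HDAC9. They were chosen by symbol among 30032 loci of an expression table of HepG2, 23303 of which have a gene symbol, and all 10 were found. HepG2 is an established human liver cancer cell line, here freshly cultured with no treatment named. The data hold 7 samples: native MNase-Seq, in which chromatin without crosslinking is digested to map nucleosomes, RNA-Seq, and ChIP-Seq of 5 histone marks, namely H3K4me3, H3K9ac, H3K27ac, H3K27me3 and H3K9me3. Each assay has 1 sample, so no values could be tested between samples, and every value below is a description of these libraries. The RNA-Seq sample has 2 columns of values, called run 1 and run 2 here, and nothing says whether they came from separate cultures, so their mean was counted as 1 sample.

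EP300 and CREBBP are closely related coactivators known for acetylating H3K27 at enhancers and promoters. KAT2A and KAT2B are the alternative catalytic subunits of the SAGA and ATAC coactivator complexes and are known for acetylating H3K9. HDAC1 and HDAC2 work in the SIN3, NuRD and CoREST corepressor complexes, and HDAC3 works in a nuclear receptor corepressor complex. Class IIa deacetylases bind MEF2 transcription factors, move between the nucleus and the cytoplasm and have weak catalytic activity of their own. H3K4me3, H3K9ac and H3K27ac are called activation marks here, because they are usual at active promoters. H3K27me3 and H3K9me3 are called repressive marks, the former of Polycomb chromatin and the latter of heterochromatin.

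Expression is given as FPKM, the number of fragments scaled to the transcript's length and the mapped total, so levels can be set side by side between genes. A position is a nucleosome that the MNase-Seq map lists, and it is marked where a peak of a histone mark was called on it. Positions with H3K4me3, H3K9ac and H3K27ac together are called trivalent. Marks of 1 position were measured in separate libraries of many cells, so they need not lie on the same nucleosome in 1 cell. The transcription start site (TSS) is the 5′ end of the locus as listed in hg19, and distances are to the midpoint of a position, negative for upstream. For comparison, 13289 named genes with a symbol and coordinates of their own were analysed in the same way. Of the 10 members, 8 have coordinates of their own. HDAC4 shares its listed span with MIR4269 and MGC16025, and HDAC7 shares its span with SLC48A1 and RAPGEF3, so the TSS and the marks of HDAC4 and HDAC7 are less certain.

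All 8 hepatocyte markers were expressed, from FGB at an FPKM of 56.6 to ALB at 10011. Of 5 leukocyte markers, PTPRC and CD3E were at 0 in both runs, while LYZ was at 1173 and CD14 at 2.53. Of 5 fibroblast or stellate markers only PDGFRB passed an FPKM of 1, and none of 4 endothelial markers did, the highest being CDH5 at 0.693. POU5F1 (3.03) and LIN28A (1.17) passed it among 5 pluripotency markers. Across the analysed genes, the runs had a Pearson r of 0.988 on the log2(FPKM + 0.01) scale, where genes are not independent replicates.

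Sequences before the start are shown for KAT2A and KAT2B, which differed in RNA and marks, and for the first and a later RefSeq start of HDAC9, which differ in CpG content. EP300, whose start carried 6 trivalent positions, is added beside them. They come from RefSeq in build GRCh38.p14, hold the 250 bases before a listed start on the gene's own strand, and have each CpG dinucleotide in capitals. KAT2A is at chr17:42121368-42121617 on the minus strand, and the others are on the plus strand, KAT2B at chr3:20040196-20040445, EP300 at chr22:41092342-41092591, and HDAC9 at chr7:18086575-18086824 and chr7:18495499-18495748.
KAT2A: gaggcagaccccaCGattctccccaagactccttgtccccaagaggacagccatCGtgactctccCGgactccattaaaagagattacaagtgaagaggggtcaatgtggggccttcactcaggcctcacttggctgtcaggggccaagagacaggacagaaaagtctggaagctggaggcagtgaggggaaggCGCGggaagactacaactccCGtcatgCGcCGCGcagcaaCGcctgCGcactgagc
KAT2B: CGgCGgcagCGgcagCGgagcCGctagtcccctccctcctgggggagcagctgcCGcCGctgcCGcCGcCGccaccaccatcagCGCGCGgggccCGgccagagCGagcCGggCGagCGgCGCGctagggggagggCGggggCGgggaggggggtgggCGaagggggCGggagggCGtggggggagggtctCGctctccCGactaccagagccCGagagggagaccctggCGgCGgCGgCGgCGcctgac
EP300: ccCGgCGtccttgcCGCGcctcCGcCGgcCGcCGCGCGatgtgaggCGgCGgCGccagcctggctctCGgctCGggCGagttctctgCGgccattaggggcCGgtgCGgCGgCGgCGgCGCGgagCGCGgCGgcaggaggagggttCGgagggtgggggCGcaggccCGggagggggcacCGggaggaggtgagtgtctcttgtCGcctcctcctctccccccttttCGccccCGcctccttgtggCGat
HDAC9 first start: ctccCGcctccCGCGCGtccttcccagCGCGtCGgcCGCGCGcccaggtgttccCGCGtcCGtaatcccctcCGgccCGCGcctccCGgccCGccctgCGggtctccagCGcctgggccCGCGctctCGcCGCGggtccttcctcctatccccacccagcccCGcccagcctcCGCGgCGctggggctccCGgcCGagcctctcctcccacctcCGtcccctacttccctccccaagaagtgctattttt
HDAC9 later start: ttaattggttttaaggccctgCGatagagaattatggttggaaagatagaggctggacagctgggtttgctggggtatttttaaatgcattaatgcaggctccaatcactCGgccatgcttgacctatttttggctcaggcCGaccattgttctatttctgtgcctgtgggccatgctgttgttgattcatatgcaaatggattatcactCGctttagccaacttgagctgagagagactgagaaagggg

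These 250 bases held 35 CpG at EP300, 33 at KAT2B and 32 at the first HDAC9 start. KAT2A had 11 CpG, equal to the median of all 35116 RefSeq promoters, and the later HDAC9 start had 4. The GC content was 58.8% at KAT2A and 80.8% at KAT2B, against a median of 58% over all promoters. For the other members, CREBBP had 46 and 31 CpG at its 2 starts, HDAC1 21, HDAC2 18, HDAC3 22, HDAC7 28 and HDAC4 33 at its first of 5 starts. All 10 members matched, with 19 promoters. A search of both strands found the GC box GGGCGG in 36.8% of the members' promoters and 42.6% of all promoters of the same length. Of these 19 windows, 10 are starts of HDAC4 and HDAC9, and the direction turned when only the first start of each gene was taken, where 6 of 10 members and 42.2% of 27305 genes held the GC box. KAT2B held 3 copies of it and the first HDAC9 start 2. The CCAAT box was in 21.1% of the members' promoters and 32.0% of all, and the ETS core CCGGAA in 10.5% and 14.5%. With first starts only, each was held by 1 of 10 members, beside 33.0% of genes for the CCAAT box and 14.8% for the ETS core. TATAAA was in none of the 19 and 10.7% of all, the CRE sequence TGACGTCA in none and 1.65%, and the NRF1 sequence in none and 1.03%. These last 2 are so rare that their absence from 19 windows gives little to compare. These windows are in another build than the nucleosome map, so the listed TSS of the 2 sources were not aligned with each other.

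Class I deacetylases were at the highest levels among the members. HDAC1 was at 50.9 FPKM in run 1 and 50.5 in run 2, and its mean of 50.7 was higher than that of 93.6% of the analysed genes. HDAC2 was at 29.9 in both runs, and HDAC3 at 30.3 and 27.3. HDAC2 and HDAC3 cannot be put in order, since HDAC3 was higher in run 1 and lower in run 2. HDAC1 was 1.69 times HDAC2 by the means, with ratios of 1.70 and 1.69 in the single runs. KAT2A followed at 22.7 and 23.1, EP300 at 11.4 and 11.1, and CREBBP at 7.48 and 7.06. Lower still were HDAC7 at 4.10 and 4.17, HDAC4 at 3.83 and 3.49, and KAT2B at 1.11 and 1.18. HDAC9 was last at 0.0912 and 0.0649. All neighbours in this order other than HDAC2 and HDAC3 were apart in both runs, the closest being HDAC7 and HDAC4 with a ratio of 1.13. The run difference reached 10.3% of the mean for HDAC3 and stayed under that for the other members except HDAC9, where it was 33.6%.

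**Figure D1:**
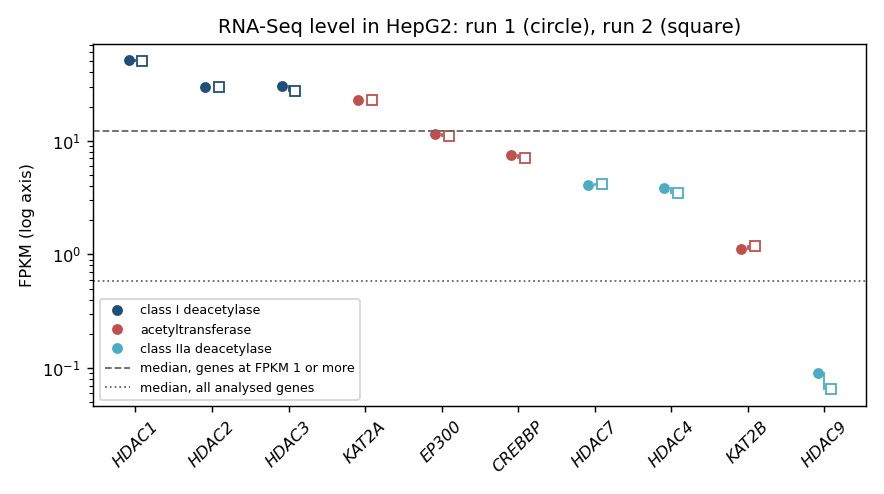
FPKM of each member in the RNA-Seq sample on a log axis, with run 1 as a circle and run 2 as a square and the colour giving the class. The dashed line is the median of the genes at an FPKM of 1 or more (12.1) and the dotted line that of all analysed genes (0.583); the class I genes and KAT2A lie above the former, and HDAC9 is the only member below the latter.

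An FPKM of at least 1 was reached by 9 of the 10 members, beside 47.6% of the analysed genes. The summed FPKM was 109.4 for the class I deacetylases, 42.6 for the acetyltransferases and 7.87 for the class IIa deacetylases. All 6 deacetylases together had 2.76 times the sum of the 4 acetyltransferases, with 2.79 in run 1 and 2.72 in run 2. This holds for the chosen members only. The 13 other acetyltransferases described below summed to 198.9 and the 5 other zinc-dependent deacetylases to 53.0, the opposite direction. Sums depend on the number of genes listed, and the medians of these other genes were close, at 9.68 and 8.61. Among the members the medians were 16.5 for the deacetylases and 9.25 for the acetyltransferases, closer than their sums. The deacetylases were split into a high class I group and a low class IIa group. The difference of the medians on the log2(FPKM + 0.01) scale was -0.27, and it was -1.67 once HDAC9 was left out for an FPKM under 0.1. Within the class I group the range was 28.8 to 50.7 and within the class IIa group 0.0781 to 4.14, so the groups did not overlap. In a culture measured in bulk, fewer cells expressing a gene and less RNA per cell cannot be told apart.

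Around the TSS, 9 of the 10 members had at least 1 trivalent position within 2 kb, beside 42.8% of the analysed genes. At least 3 trivalent positions were found at 6 members (EP300, CREBBP, HDAC1, HDAC2, HDAC3 and HDAC7), beside 27.8% of all analysed genes and 56.3% of those at an FPKM of 1 or more. Of the 9 members at an FPKM of 1 or more, 6 passed, which is near that second background for so small a number. In all, 57 positions were marked within 2 kb of the 10 TSS, and 33 of them were trivalent. H3K4me3 alone was on 12 of the others, H3K4me3/H3K9ac on 7, H3K9ac alone on 3, and H3K27ac alone and H3K4me3/H3K27ac on 1 each. No H3K27me3 or H3K9me3 was called within 2 kb of any member's TSS, which was usual, since 88.7% of the analysed genes had none there. Trivalent positions were more frequent downstream than upstream of the TSS at 7 members and more frequent upstream at 2, CREBBP and HDAC3. Among the 5685 analysed genes with at least 1 trivalent position there, 76.9% had more downstream and 13.8% more upstream, so the members were near the background. The 7 include KAT2A and KAT2B with a single trivalent position and HDAC7 with 4 against 3.

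**Figure D2:**
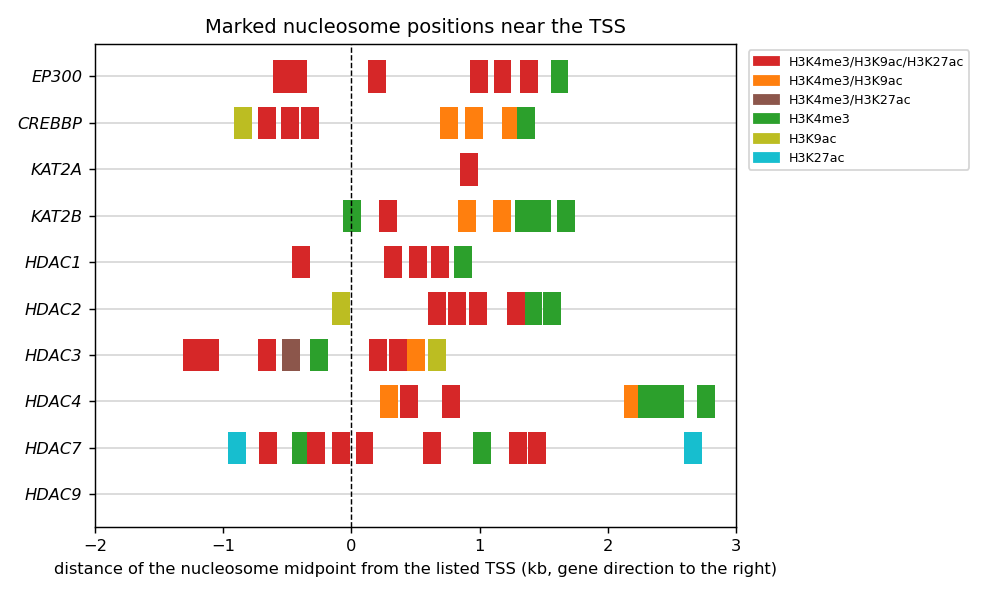
Marked nucleosome positions of each member from 2 kb upstream to 3 kb downstream of the listed TSS (dashed line), drawn at their length of 140 bp with the colour giving the marks on the position. Red trivalent positions are on both sides of the TSS at EP300, HDAC1, HDAC3 and HDAC7 but upstream only at CREBBP, KAT2A has 1 marked position, and the HDAC9 row is empty.

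EP300 (chr22:41487718-41576155, plus strand) had 7 marked positions of 12 within 2 kb, and 6 of them were trivalent. They lay at -541, -416, 199, 994, 1179 and 1389 bp, followed by H3K4me3 alone at 1624 bp. EP300 had fewer mapped positions in this window than most genes, since only 3.49% of the analysed genes had fewer. The midpoints on both sides of its TSS were 615 bp apart, wider than at 88.0% of the genes, whose median was 283 bp. Inside the locus, H3K9ac/H3K27ac at 15.1 kb was followed by H3K27ac alone at 15.3 and 15.4 kb, and H3K9ac alone was at 33.9 kb. The count of 6 was higher than that of 93.6% of the genes, while the FPKM of 11.2 was below the median of 16.4 for genes with 6 trivalent positions.

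CREBBP (chr16:3775043-3930697, minus strand) had its activation marks split by the TSS. Its 3 trivalent positions lay upstream at -656, -479 and -324 bp, with H3K9ac alone beyond them at -849 bp. Downstream the 3 positions at 761, 953 and 1246 bp carried H3K4me3/H3K9ac without H3K27ac, and the position at 1364 bp carried H3K4me3 alone. At least 3 trivalent positions upstream with 0 downstream were found at 0.625% of the analysed genes (83 of 13289). Only 3690 of these genes had at least 3 trivalent positions and could show this arrangement. The gap over the TSS was 1085 bp, the widest of the members and wider than at 96.8% of the genes. CREBBP had a lower FPKM than EP300 in both runs, with EP300 at 1.53 and 1.57 times its level. H3K9ac alone was found at 42.6 and 121.6 kb inside the locus. Of the 16 marked positions over the locus plus 10 kb, 6 lay at the common listed TSS of SLX4 (FPKM 1.70) and TRAP1 (52.0), 163.1 kb from that of CREBBP.

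KAT2A and KAT2B, which stand in for each other in the same complexes, differed in opposite ways in RNA and in marks. KAT2A had 19.9 times the FPKM of KAT2B, with 20.4 in run 1 and 19.5 in run 2. KAT2A (chr17:40265083-40274001, minus strand) nevertheless had 1 marked position of 20 within 2 kb of its TSS, trivalent and at 915 bp. Among 2132 analysed genes at an FPKM of 20 or more, 15.8% had at most 1 trivalent position there and 5.49% at most 1 marked position of any kind. The TSS of HSPB9, at an FPKM of 0.179, is listed 754 bp away, and the other 3 marked positions over the locus plus 10 kb lay at DHX58 (FPKM 1.59), 9.14 kb away. KAT2B (chr3:20081350-20196097, plus strand) had 7 marked positions of 18 within 2 kb. All 7 carried H3K4me3, at 2, 287, 900, 1172, 1347, 1487 and 1677 bp, but only that at 287 bp was trivalent. H3K9ac was on 3 of them and H3K27ac on 1. KAT2B was also the acetyltransferase with repressive marks nearby, with 1 H3K27me3 position at -3.13 kb and 1 H3K9me3 position at 14.8 kb. The CpG counts of the sequences printed above were in the order of the H3K4me3 counts, 11 for KAT2A and 33 for KAT2B, and in the opposite order of the FPKM.

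HDAC1 (chr1:32757708-32799224, plus strand) had 5 marked positions of 18 within 2 kb. Trivalent positions lay at -391, 324, 519 and 689 bp, and H3K4me3 alone at 874 bp. Between 19.4 and 30.6 kb inside the locus were 5 positions with H3K27ac, 2 of them also with H3K9ac and none with H3K4me3. Over the locus plus 10 kb, 22 of 329 positions were marked (6.69%, exact Clopper-Pearson 95% interval 4.24 to 9.95, counting error only), against 1.43% in the whole map. This share is not that of HDAC1 alone, since 7 of the 22 lay at the TSS of MARCKSL1 (FPKM 121.7) and 5 with H3K4me3 alone lay in the flank at 49.9 to 50.5 kb.

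HDAC2 (chr6:114255785-114292647, minus strand) had 7 marked positions of 18, all within 2 kb of the TSS and none elsewhere over the locus plus 10 kb. The 4 trivalent positions were all downstream, at 666, 826, 991 and 1286 bp, and H3K4me3 alone followed at 1421 and 1566 bp. Upstream was a single position with H3K9ac alone at -84 bp. The gap over the TSS was 750 bp at HDAC2 and 715 bp at HDAC1, wider than at 92.6% and 91.6% of the genes. Both genes had 4 trivalent positions, and their FPKM of 29.9 and 50.7 were above the median of 15.4 for analysed genes with that number.

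HDAC3 (chr5:141000443-141016423, minus strand) had 9 marked positions of 20 within 2 kb, including 5 trivalent ones at -1243, -1103, -661, 204 and 367 bp. H3K4me3/H3K27ac without H3K9ac, at -473 bp, was found at no other member's TSS. RELL2 (FPKM 2.67) starts on the other side, with a listed TSS 43 bp away, so the positions upstream of HDAC3 are downstream of RELL2 and cannot be assigned to either gene. Within 1 kb of the TSS the number of trivalent positions was 3. A further 4 marked positions, 2 of them trivalent, lay at the TSS of DIAPH1 (FPKM 29.6), 17.8 kb from that of HDAC3.

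**Figure D3:**
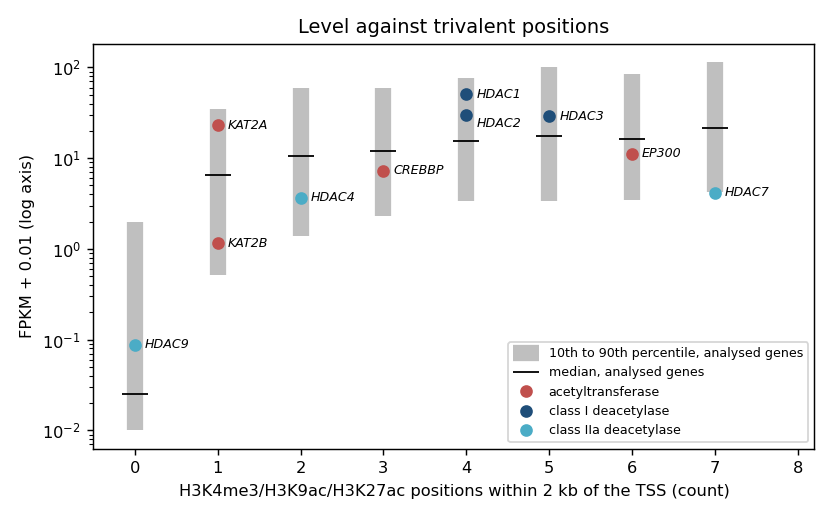
Mean FPKM + 0.01 on a log axis against the number of trivalent positions within 2 kb of the TSS, with grey bars from the 10th to the 90th percentile and black lines at the median of the analysed genes with that number. KAT2A is at an FPKM of 22.9 with 1 trivalent position and HDAC7 at 4.14 with 7.

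Class IIa genes covered the whole range of marks at the TSS, with 7 trivalent positions at HDAC7, 2 at HDAC4 and 0 at HDAC9. HDAC7 (chr12:48128453-48214053, minus strand) had the most trivalent positions at its TSS, 7 of 18 positions, where at least 7 were found at 3.12% of the analysed genes. They lay at -653, -273, -78, 102, 632, 1300 and 1452 bp. Its FPKM of 4.14 was below 4.28, the 10th percentile of the analysed genes with 7 trivalent positions, whose median was 21.4. RAPGEF3 (FPKM 0.105) and SLC48A1 (7.06) are listed with the same span, so only its ends could be taken as their starts. RAPGEF3 was thus given the same TSS as HDAC7, and SLC48A1 the other end. Where either gene starts within the span is not known here. Further marked groups with H3K4me3 lay at 46.3 to 47.3 kb (4 positions, 1 of them trivalent) and at 60.8 to 61.4 kb (4 positions, none trivalent). No TSS is listed there, but a start of RAPGEF3 or SLC48A1 inside the shared span would not be listed. H3K9me3 was called on 1 position, at 79.2 kb. Neither these groups nor that position can be assigned to HDAC7 alone.

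HDAC4 (chr2:239969864-240323991, minus strand) had 3 marked positions within 2 kb, H3K4me3/H3K9ac at 295 bp and trivalent ones at 448 and 775 bp. Just beyond that window were 5 more with H3K4me3, 1 of them also with H3K9ac, from 2.20 to 2.77 kb. Over its 354.1 kb locus the marks formed separate groups. H3K27ac alone was on 8 positions, 4 of them together at 351.4 to 352.5 kb, near the 3′ end of the locus. A trivalent position at 178.9 kb had H3K4me3 alone on either side, at 178.6 and 179.1 kb. A start of MGC16025 or MIR4269 inside the shared span would not be listed, so these groups cannot be assigned to HDAC4 alone. RefSeq also lists later HDAC4 starts, 103.1 to 134.1 kb after the first, which were not placed on this map. None of the 2086 positions over the HDAC4 locus plus 10 kb carried a repressive mark.

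HDAC9 (chr7:18535369-19039248, plus strand) had no activation mark on any of 2600 positions over its locus plus 10 kb and no mark at all within 2 kb of its listed TSS. Of 5516 analysed genes with an FPKM under 0.1, 70% likewise had no marked position within 2 kb. RefSeq lists a first HDAC9 start 408.9 to 422.4 kb before its later ones, and that start was not placed on this map. The nearest activation mark before the listed start lay 408.6 kb away, outside the window, on a position that also carried H3K27me3. The absences at HDAC9 therefore hold for the listed locus only. Its 20 marked positions carried H3K9me3 alone (18), H3K27me3 alone (1) or both (1, at 211.3 kb). Repressive marks without any activation mark over the locus plus 10 kb were found at 15.8% of the analysed genes. The H3K9me3 positions were spread from 47.6 to 498.2 kb with a median gap of 16.2 kb and a largest gap of 67.1 kb, and in 2 pairs neighbours were less than 200 bp apart. H3K9me3 was on 0.731% of the positions (19 of 2600, exact Clopper-Pearson 95% interval 0.441 to 1.14), against 0.243% in the whole map. This share was higher than that of 97.1% of the 444 analysed genes that had at least 1000 positions and an FPKM under 0.1, whose median was 0.212%. H3K27me3 or H3K9me3 was present over the locus plus 10 kb at 3 of the 10 members (KAT2B, HDAC7 and HDAC9), beside 45.3% of the analysed genes. For HDAC7 this rests on 1 position in the span shared with SLC48A1 and RAPGEF3.

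**Figure D4:**
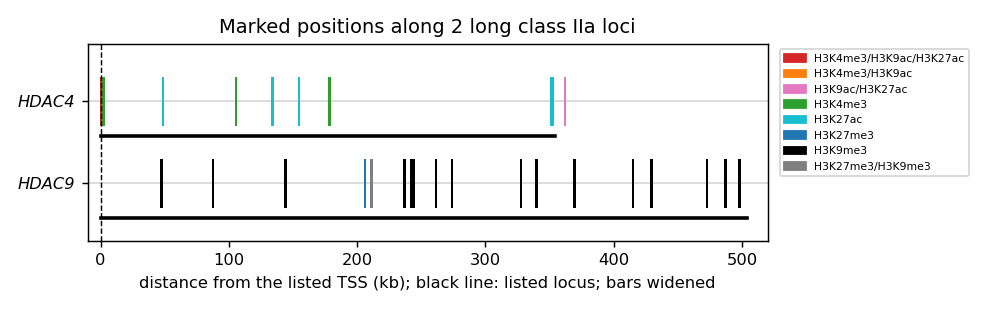
Marked positions along the HDAC4 and HDAC9 loci against the distance from the listed TSS in kb, with the locus as a black line below each row and bars drawn wider than the positions. The listed HDAC4 span, shared with MIR4269 and MGC16025, holds activation marks only. Groups lie near the TSS, at 178.6 to 179.1 kb and at 351.4 to 352.5 kb. The listed HDAC9 locus, which may leave out an earlier start, holds repressive marks only, from 47.6 to 498.2 kb.

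Over the loci plus 10 kb, 145 of 8394 positions of the 10 members were marked (1.73%, exact Clopper-Pearson 95% interval 1.46 to 2.03), against 1.43% in the whole map of 14217405 positions. Of the 145, 57 lay within 2 kb of the member's own TSS, 20 near the TSS of another named gene, 61 elsewhere in the locus and 7 in the flank. Genes listed with the member's own span were not counted as other genes here, and 2 of the 61, at HDAC4, lay within 2 kb of the listed TSS of MIR4269. The shares ranged from 0.769% at HDAC9 and 1.01% at HDAC4, the longest loci, to 6.69% at HDAC1 and 7.14% at HDAC3. Trivalent positions were the most frequent combination with 47, followed by H3K4me3 alone with 32, H3K9me3 alone with 20, H3K4me3/H3K9ac with 17 and H3K27ac alone with 15. At least 1 trivalent position over the locus plus 10 kb was found at 9 members, beside 52.4% of the analysed genes.

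**Figure D5:**
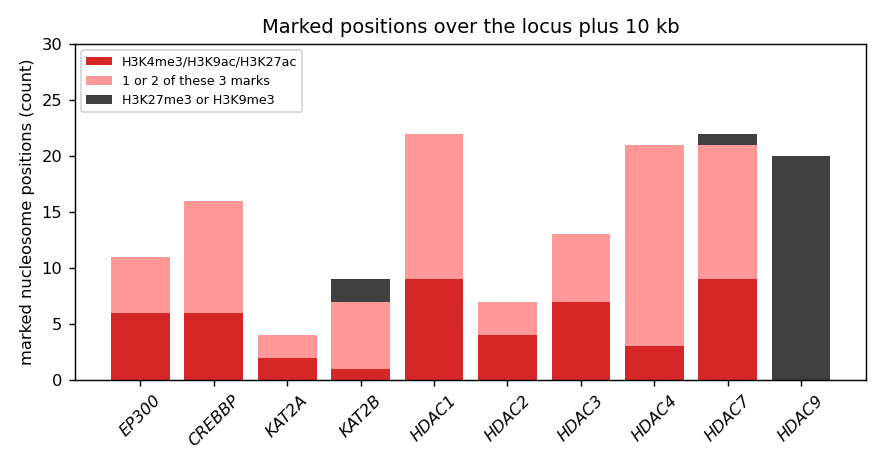
Number of marked positions over each member's locus plus 10 kb, stacked as trivalent positions, positions with 1 or 2 of the 3 activation marks, and positions with H3K27me3 or H3K9me3. HDAC1 and HDAC7 reach 22, the HDAC9 bar of 20 is repressive throughout, and windows differ in length, from 28.9 kb at KAT2A to 523.9 kb at HDAC9.

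The other genes of the pathway were taken from lists of enzymes, complex partners and readers. Of 70 such genes, 68 had an FPKM of at least 1 and 31 at least 3 trivalent positions within 2 kb of the TSS, but 36 share their coordinates with other loci. Beside them, 47.6% of the analysed genes had an FPKM of at least 1 and 27.8% at least 3 trivalent positions. The latter share was 56.3% among those at an FPKM of 1 or more. The counts of the single lists below stand beside the same shares. All 13 other acetyltransferases were at an FPKM of at least 1, with a median of 9.68, from KAT6B (4.24) to HAT1 (67.7), which acetylates newly made histone H4, and 6 had at least 3 trivalent positions. The 5 other zinc-dependent deacetylases had a median of 8.61, from HDAC11 (6.22) to HDAC10 (17.4), whose row also holds several symbols, and 2 had at least 3 trivalent positions. Among the 7 sirtuins, the NAD-dependent deacylases, levels ran from SIRT4 (1.39) to SIRT5 (106.9), likewise a row with several symbols, whose FPKM cannot be assigned to SIRT5 alone, and the median was 7.09.

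Partners of KAT2A and KAT2B in SAGA and ATAC were all at an FPKM of at least 1 (15 of 15, median 13.5). The lowest was ATXN7 (4.52) and the highest USP22 (42.6), subunits of the deubiquitinating module of SAGA, and 5 of the 15 had at least 3 trivalent positions. The 22 corepressor partners of HDAC1, HDAC2 and HDAC3 had a median of 17.5, from CHD3 (1.68), a remodelling ATPase of NuRD, to RBBP7 (61.7), a histone-binding subunit, and 11 had at least 3 trivalent positions. Of the MEF2 factors that class IIa deacetylases bind, MEF2A was at 9.16 and MEF2C was listed at 0 in both runs, with 6 positions of H3K27me3 or H3K9me3 over its locus plus 10 kb. The bromodomain readers of the BET family ranged from BRDT, a testis gene listed at 0, to BRD2 at 39.1. BRD2 had no marked position within 2 kb of its listed TSS.

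The nearest of these 70 genes was found for the members over 6 measures, the log2(FPKM + 0.01) and the number of positions with each of the 5 marks within 2 kb of the TSS, each divided by its SD over the analysed genes. The smallest distances were those of HDAC2 to KDM1A (0.327), HDAC3 to BRD3 (0.345), EP300 to RCOR1 (0.366), HDAC4 to KAT5 (0.403) and HDAC1 to SAP18 (0.405). KAT2A was nearest to MBD2 (0.578), KAT2B to SIRT1 (0.635) and HDAC9 to MEF2C (0.664). BRDT was as near to HDAC9 as MEF2C was. Both were listed at an FPKM of 0 with no marked position within 2 kb, so their 6 measures were the same. HDAC7 had the most distant neighbour, ZZZ3 at 0.825, which also had 7 trivalent positions but an FPKM of 13.5. KDM1A, BRD3, KAT5, MBD2 and ZZZ3 share their coordinates with other loci, so their listed TSS and mark counts are less certain.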

How the data were processed

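Native MNase-Seq, ChIP-Seq and RNA-Seq data of HepG2 were used, 1 sample for each of 7 assays or marks. The authors aligned MNase-Seq and ChIP-Seq reads with BWA to hg19, called nucleosome positions with DANPOS and called peaks of 5 marks at these positions with NUCLIZE. They deposited coordinates with an identifier but no height or count, so the number of reads behind a single position or peak is unknown, no threshold could be tightened, and an unmarked position may be a missed one. FPKM values were deposited by the authors in 2 columns, and the submitters' processing notes name TopHat2 2.1.0 and hg19 for them. The annotation and the counting step are not given in the sources used here. The deposited p-value and q-value columns hold the authors' own comparison of these columns and were not used.

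Each peak marked the position it overlapped most, which was the position whose identifier it carries for all 319086 peaks, and 203848 of 14217405 positions were marked. These lists hold fewer marked positions than the study describes, which bears on every share and absence given here, and the reason was not tested. Strand came from RefSeq by symbol, or else from the order of locus numbering. The latter matched RefSeq for all 10 members and disagreed for 31 of 8436 analysed genes. Analysed genes had coordinates of their own and 1 symbol (13289). Levels used a pseudocount of 0.01 for log2 values, and shares have exact Clopper-Pearson 95% intervals, which cover counting error only. There was no group to compare, so no test was run.

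The members and lists were chosen with earlier results of these data known. Genes named are all 10 members, each list's genes under an FPKM of 1 with its highest and lowest, and the nearest list gene of each member, of which that of CREBBP is not reported here. Other genes are named as neighbours of a marked position or as markers. Alternatives were other flanks (0 and 20 kb among them), windows of 1 and 5 kb, FPKM limits of 0.1 and 5, any overlap of at least 1 bp, single runs, a pseudocount of 1, strand by numbering and all named loci. Counting and matching were tested on simulated data. All steps ran in Python 3.11.15 with pandas 2.3.3, numpy 2.4.6, matplotlib 3.10.9 and, for intervals, scipy 1.17.1.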

Additional observations from a re-analysis of the deposited data

How the results depend on the processing

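The difference of the acetyltransferase and deacetylase medians on the log2 scale was -0.27 with both runs and a pseudocount of 0.01, -0.30 with a pseudocount of 1, -0.26 in run 1 alone and -1.67 with members of an FPKM of at least 0.1 only, which leaves out HDAC9. The sign stayed negative, also in run 2 alone, and the value was -1.70 without HDAC4 and HDAC7, an alternative chosen after seeing the data. The share of genes with an FPKM of at least 1 was 47.6% and became 51.4% over all 22093 named loci with a strand. Of the changed values given here, only -1.67 and -1.70 were beyond 1.5 times the main value. The other 27 recomputed values of the same kind stayed within 1.5 times. For single members, dropping the flank lowered the marked positions of CREBBP from 16 to 6, of KAT2A from 4 to 1, of HDAC1 from 22 to 9 and of HDAC3 from 13 to 4, and a flank of 5 kb left 10 at CREBBP. The positions lost without a flank were at neighbouring genes' starts for KAT2A (3 of 3), but included 5 of 9 within 2 kb of the own TSS for HDAC3, 4 of 10 for CREBBP and 1 of 13 for HDAC1. HDAC3 had 3 trivalent positions within 1 kb. No paired analysis was possible because each assay has 1 sample and no groups were compared, and for the same reason no sample could be left out. Depth limits every absence: with peaks only listed above the authors' threshold, an unmarked position was not detectably marked at this depth.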

Other observations

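The expression table lists HDAC9 from 18535369 on chromosome 7, and its neighbourhood upstream was examined after the values at this start had been seen. The nearest position with an activation mark below the listed start was chr7:18126662-18126801, which carried H3K4me3 and H3K27me3 together. It lay 408.6 kb before the listed start, and the next marked position, 408.4 kb before it, carried H3K27me3 alone. Only 221 positions in the whole map carried H3K4me3 and H3K27me3 and no other mark. The expression table has no named locus within 20 kb of this one, but for HDAC9 it holds only the listed span, so an earlier HDAC9 start would be missed. Between this position and the listed start were 1 more H3K27me3 position, at 236.1 kb, and 2 H3K9me3 positions, at 224.0 and 95.8 kb. RefSeq, in build GRCh38.p14, lists 5 starts of HDAC9, of which the later ones lie 408.9, 408.9, 409.4 and 422.4 kb after the first, the start with 32 CpG printed in the report. These distances were each taken within 1 build, and whether the first RefSeq start and the doubly marked position are the same site was not tested. Above the end of the locus, the nearest activation mark was 708.5 kb away.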
